A study of Danio rerio with 4 samples.

Results

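The transcripts of Gata1+ cells from zebrafish embryos injected with a morpholino oligonucleotide (MO) against foxo3b were compared between 48 and 24 hours post fertilization (hpf). The comparison rests on 2 of the 4 libraries of the series, 1 at each stage, joined on the gene name. Of the 14417 genes in the files, it covers the 11971 whose mean over the 4 libraries reached 1 FPKM (fragments per kilobase of transcript, scaled to the mapped fragments of the library). All embryos came from the gata1:GFP line, in which the gata1 promoter drives green fluorescent protein, and were injected at the stage of a single cell. The foxo3b MO groups were collected at 48 and at 24 hpf, and the control groups, which received a standard MO, at the same stages. GFP-positive cells were then sorted by flow cytometry, and RNA was sequenced. The sources used here do not say how many embryos or cells went into a library.

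Each of the 4 groups has 1 library. There is thus no measure of spread within a group and no test was run, so every value below describes these libraries. Levels are FPKM as the authors deposited them. A difference is given as the log2 of (FPKM + 1) at 48 hpf over (FPKM + 1) at 24 hpf, and a gene was counted as higher or lower from 2-fold upward. Adding 1 FPKM understates the change of genes with low levels.

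GATA1 is the master transcription factor of red blood cell precursors. In the zebrafish embryo the first red cells arise from the intermediate cell mass, enter the circulation at about the earlier of the stages studied, and then mature while carrying embryonic hemoglobin. FOXO3 is a transcription factor that insulin and growth factor signalling holds in the cytoplasm. In mouse red cell precursors it is known to drive antioxidant genes, to restrain cell division and to take part in the last steps of maturation.

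The targeted gene itself was measured first. In foxo3b MO, foxo3b stood at 50.3 FPKM at 48 hpf and 46.5 FPKM at 24 hpf (log2 fold 0.11), and in control at 38.1 FPKM at 48 hpf and 6.402 FPKM at 24 hpf (log2 fold 2.4). The MO library at 24 hpf was thus already near the level that both 48 hpf libraries had. The gene spans positions 32325663 to 32371617 of chromosome 20 in Zv9, the assembly of the files. An MO can block translation without lowering the mRNA, and the labels do not give its binding site, so these levels do not check the knockdown.

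The other FOXO genes had lower levels. In foxo3b MO, foxo1a stood at 11.1 FPKM at 48 hpf and 4.38 FPKM at 24 hpf, the sole family member past 2-fold (log2 fold 1.17). Its paralog foxo3a stood at 10.5 FPKM at 48 hpf and 10.7 FPKM at 24 hpf, foxo1b at 1.302 FPKM at 48 hpf and 1.83 FPKM at 24 hpf, and si:ch211-206a7.2 at 2.199 FPKM at 48 hpf and 1.23 FPKM at 24 hpf. In control, 3 of the 5 family members were at least 2-fold higher at 48 hpf, with a median log2 fold of 1.43 against 0.11 in foxo3b MO. Over all genes 21.0% were at least 2-fold higher in control and 15.7% in foxo3b MO.

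Markers were used to check what the sorted cells held. The reporter's own gene, gata1a, on chromosome 11 from 26345472 to 26352417, was low in foxo3b MO, with 4.33 FPKM at 48 hpf and 6.301 FPKM at 24 hpf, and in control, with 2.49 FPKM at 48 hpf and 8.23 FPKM at 24 hpf. Genes of other tissues were plentiful. Yolk, liver and lipid carrier genes took 4.77% of total FPKM at 48 hpf and 7.34% at 24 hpf in foxo3b MO. Most of that was 1 gene, fabp1b.1, with 39376 of the list's 71759 FPKM at 48 hpf and 88013 of 115761 FPKM at 24 hpf. The lower share at 48 hpf is therefore not a trait of the whole list, whose median log2 fold was 0.19. Muscle markers took 4.60% at 48 hpf and 1.40% at 24 hpf, and epidermal and keratin genes took 2.48% and 2.20%. Embryonic globin genes took 0.947% and 0.288%. The label Gata1+ therefore names the sort, and the libraries were not made up of red cell transcripts alone. In bulk RNA, fewer cells of a type and less RNA per cell cannot be told apart, which holds for every group of genes below.

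Total FPKM over the listed genes was 1505447 at 48 hpf and 1576674 at 24 hpf in foxo3b MO, and 2402299 and 2288669 in control. Counts are not among the values, and the absolute depth is unknown. Steps among the lowest values put the depth of the 48 hpf foxo3b MO library at 0.901 of that of the 24 hpf library, and put these at 0.497 and 0.545 of the depth of the control library of 24 hpf. The control library of 48 hpf came to 0.719 of that depth. Genes listed at 0 numbered 1151 at 48 hpf and 1047 at 24 hpf in foxo3b MO, against 748 and 938 in control. A value of 0 in such files can be a failed estimate, so genes at 0 are called listed at 0 and the text gives no single gene's fold against them. They stay in the counts, the list medians and the figures, through the added 1 FPKM. Leaving out genes listed at 0 in either foxo3b MO library gave 1830 genes at least 2-fold higher at 48 hpf and 1347 lower.

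Between the stages, most genes kept a similar level in foxo3b MO. Of the 11971 genes, 1882 were at least 2-fold higher at 48 hpf, which is 15.7%, and 1376 were at least 2-fold lower, which is 11.5%. The other 72.8% lay within 2-fold, with a median log2 fold of -0.03 and an interquartile range of -0.58 to 0.61. Large differences ran mainly upward, with 96 genes past 16-fold upward and 12 past it downward. Control had 94 and 9. Most of the 45 lens genes, described below with the limits of their values, were among those past 16-fold upward in foxo3b MO. Their median log2 fold was 5.26, and 20 of the 45 lie at shared loci. The upward side thus rests in part on 1 list. The balance of the 2 directions depends on the scale. With the libraries set to equal total FPKM without ribosomal protein genes, the median of all genes moved by -0.22 and the counts became 1532 higher and 2162 lower, so that 41.5% of the calls were upward in place of 57.8%.

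**Figure D1:**
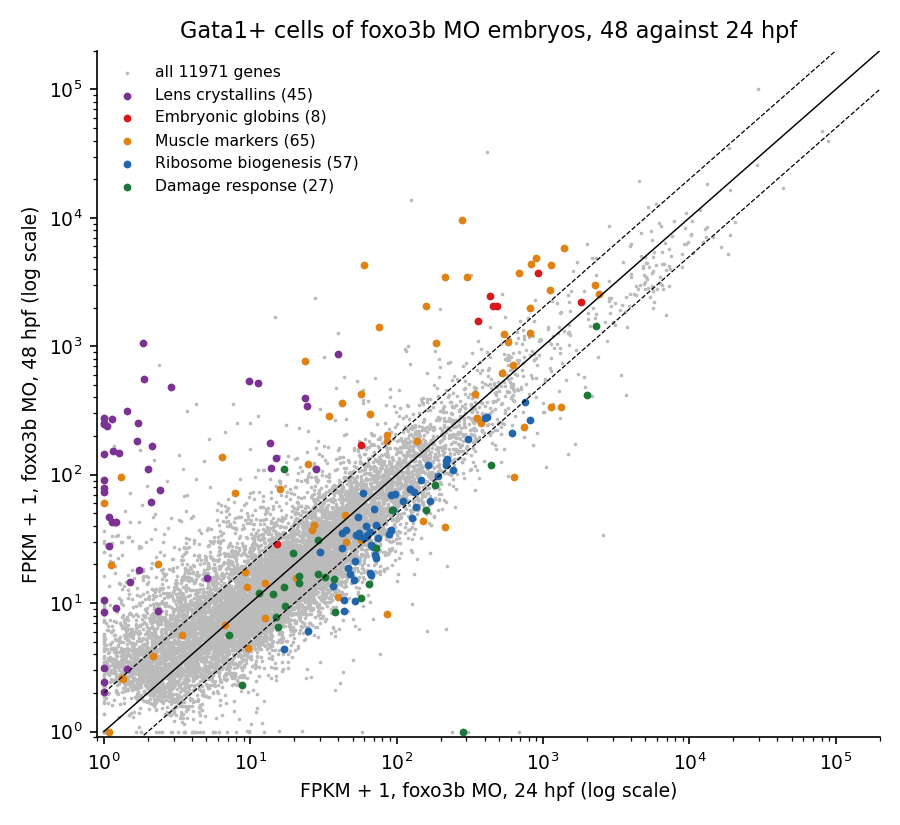
Level of each of the 11971 genes in foxo3b MO, as FPKM + 1 on log scales, at 48 hpf (vertical) against 24 hpf (horizontal), with 5 gene lists in colour. The solid line marks equal levels and the dashed lines 2-fold; the 45 lens genes shown lie above the upper dashed line, and no gene of the ribosome biogenesis list does.

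Each of 51 gene lists (pathways, complexes and markers of cell types) was described by its counts and its median log2 fold. The counts of every list stand beside shares over all genes of 15.7% higher and 11.5% lower in foxo3b MO. In control these shares were 21.0% and 8.75%. A list was called when at least 3 of its genes passed the mean of 1 FPKM and its median lay at least 0.5 from the median of all genes. By that rule 20 lists were called, 10 higher and 10 lower at 48 hpf, and the medians of all 20 kept their sign under each of 10 other settings. These settings reuse the same libraries, and the lists were chosen with earlier results of these data known. The call itself held under every setting for 14 of them. It was lost under at least 1 setting for the myeloid, early embryo, hatching gland, pigment cell, iron handling and presomitic lists, as given beside each.

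**Figure D2:**
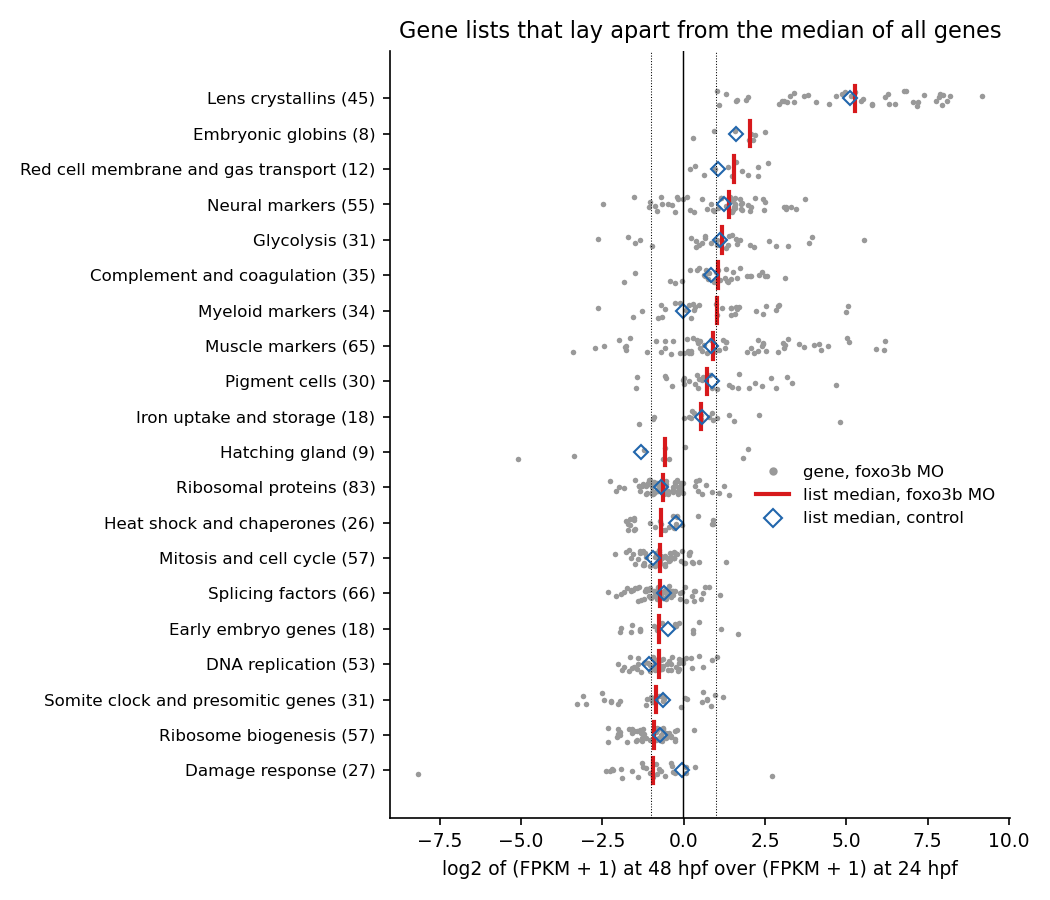
Log2 fold of each gene of the 20 called lists in foxo3b MO, 48 over 24 hpf (grey points), with the list median in foxo3b MO (red bar) and in control (blue diamond); the number of genes is in parentheses and dotted lines mark 2-fold. Medians in foxo3b MO run between 5.26 for lens genes and -0.95 for the damage response, whose control median is -0.06.

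Embryonic globin genes, which encode the chains of the first hemoglobins, were higher at 48 hpf in foxo3b MO. All 8 genes had log2 folds above 0, 6 of them past 2-fold, and the median was 2.04. Control had 6 at least 2-fold higher, 1 lower and a median of 1.6. The alpha chain gene hbae3 stood at 3710.1 FPKM at 48 hpf and 928 FPKM at 24 hpf in foxo3b MO, a log2 fold of 1.998, and at 11506 FPKM at 48 hpf and 2485 FPKM at 24 hpf in control. Its level at both stages was lower in foxo3b MO than in control. The beta chain gene hbbe2 stood at 169.5 FPKM at 48 hpf and 56.5 FPKM at 24 hpf in foxo3b MO, and at 697 FPKM at 48 hpf and 172 FPKM at 24 hpf in control, with log2 folds of 1.57 and 2.01.

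The globin genes hbbe3 and zgc:163057, currently hbae4, lay within 2-fold in foxo3b MO and below 0 in control. The beta chain gene hbbe3 stood at 2207 FPKM at 48 hpf and 1815 FPKM at 24 hpf in foxo3b MO, a log2 fold of 0.28, and at 2339.8 FPKM at 48 hpf and 9075 FPKM at 24 hpf in control, a log2 fold of -1.96. Levels of zgc:163057 were 27.9 FPKM at 48 hpf and 14.3 FPKM at 24 hpf in foxo3b MO, a log2 fold of 0.92, and 20.1 FPKM at 48 hpf and 22.7 FPKM at 24 hpf in control, a log2 fold of -0.17. The gene hbbe3 was the most abundant globin gene of both 24 hpf libraries, whereas hbae3 was the most abundant at 48 hpf in both. The 4 genes LOC573653, si:busm1-118j2.5, hbbe1.1 and hbae1 share a locus with others, so the counting could have split their reads. Their log2 folds in foxo3b MO lay between 2.08 for hbae1 and 2.5 for LOC573653, and without shared loci the globin median was 1.24 over 4 genes.

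Summed over the 8 genes, the embryonic globins came to 14260 FPKM at 48 hpf and 4545 FPKM at 24 hpf in foxo3b MO, and to 35230 and 18525 FPKM in control. The 5 adult globin genes were listed at 0 in foxo3b MO at 48 hpf and summed to 3.58 FPKM at 24 hpf. The muscle, lens and neural lists also had medians above that of all genes, as given below, and their part in the globin values was not tested.

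Genes of the red cell membrane and of gas transport were higher as well. In foxo3b MO 8 of the 12 genes passed 2-fold upward and none downward, and the median log2 fold was 1.54. Control had 6 past 2-fold upward, none downward and a median of 1.04. The anion exchanger gene slc4a1a, known as band 3, stood at 63.4 FPKM at 48 hpf and 9.66 FPKM at 24 hpf in foxo3b MO and at 63.2 FPKM at 48 hpf and 24.1 FPKM at 24 hpf in control, with log2 folds of 2.6 and 1.36. The Rh-associated glycoprotein gene rhag, for a membrane channel of ammonia and carbon dioxide, stood at 77.9 FPKM at 48 hpf and 15.15 FPKM at 24 hpf in foxo3b MO, a log2 fold of 2.29. The carbonic anhydrase gene of zebrafish red cells, cahz, stood at 156 FPKM at 48 hpf and 38.5 FPKM at 24 hpf (log2 fold 1.99).

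At 48 hpf slc4a1a had nearly the same level in foxo3b MO and control, while control had 139 FPKM of rhag and 223 FPKM of cahz. The ankyrin gene ank1, which ties the membrane to its spectrin skeleton, stood at 163 FPKM at 48 hpf and 32.8 FPKM at 24 hpf in foxo3b MO, a log2 fold of 2.28. The water channel gene aqp1a.1, also active in vessel walls, stood at 95.5 FPKM at 48 hpf and 26.7 FPKM at 24 hpf. The spectrin gene sptb was within 2-fold, at 21.6 FPKM at 48 hpf and 16.8 FPKM at 24 hpf, and so was rhd, at 4.17 FPKM at 48 hpf and 3.54 FPKM at 24 hpf.

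Enzymes of heme synthesis did not follow the globins. Of 15 genes, 1 was at least 2-fold higher (over all genes 15.7%) and 2 lower (over all genes 11.5%) in foxo3b MO, and the median was -0.41. The gene for the first, rate-limiting step in red cells, alas2, stood at 33.7 FPKM at 48 hpf and 15.19 FPKM at 24 hpf in foxo3b MO, a log2 fold of 1.1. The 2 genes past 2-fold downward were cpox and urod. The coproporphyrinogen oxidase gene cpox had 10.3 FPKM at 48 hpf and 33.9 FPKM at 24 hpf (log2 fold -1.63), and the uroporphyrinogen decarboxylase gene urod 34.8 FPKM at 48 hpf and 96.5 FPKM at 24 hpf (log2 fold -1.45).

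The remaining heme genes, among them those of the last steps, ppox (-0.34) and fech (-0.67), lay within 2-fold, between -0.96 for the mitochondrial glycine carrier gene slc25a38a and 0.37 for uros. The ferrochelatase gene fech, for the step that inserts iron, stood at 6.63 FPKM at 48 hpf and 11.1 FPKM at 24 hpf. In control 7 of the 15 were at least 2-fold lower and none higher, with a median of -0.72. The porphyrin carrier gene tmem14c, the most abundant of the list, stood at 114 FPKM at 48 hpf and 93.5 FPKM at 24 hpf in foxo3b MO and at 159 FPKM at 48 hpf and 321 FPKM at 24 hpf in control.

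Among erythroid transcription factor genes, 3 of 14 were at least 2-fold higher (over all genes 15.7%) and 1 lower (over all genes 11.5%) in foxo3b MO. The median was -0.02, and the list was not called. The globin switching repressor genes bcl11ab and bcl11aa (a role known from human and mouse BCL11A) stood out. In foxo3b MO, bcl11ab had 26.4 FPKM at 48 hpf and 2.02 FPKM at 24 hpf (log2 fold 3.18), and bcl11aa had 11.6 FPKM at 48 hpf and 1.19 FPKM at 24 hpf (log2 fold 2.53). Both are also active in the brain. The zebrafish klf1 gene, listed as klfd, for an activator of globin and membrane genes, had 5.795 FPKM at 48 hpf and 1.35 FPKM at 24 hpf (log2 fold 1.53).

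The log2 folds of gata1a (-0.45), tal1 (-0.45) and lmo2 (-0.63), whose products act in 1 complex, lay within 2-fold in foxo3b MO. Their levels were 4.33 FPKM at 48 hpf and 6.301 FPKM at 24 hpf for gata1a, 10.4 FPKM at 48 hpf and 14.6 FPKM at 24 hpf for tal1 and 12.3 FPKM at 48 hpf and 19.5 FPKM at 24 hpf for lmo2. The repressor gene gfi1.1, listed currently as gfi1aa, was the member past 2-fold downward, at 0.5502 FPKM at 48 hpf and 2.64 FPKM at 24 hpf. Of 14 blood progenitor genes none passed 2-fold in foxo3b MO. The largest difference was that of hhex, with a listed locus of 335 bases, at 20.9 FPKM at 48 hpf and 42.3 FPKM at 24 hpf.

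Iron handling genes had 5 of 18 at least 2-fold higher, 1 lower and a median of 0.54, and lost the call with 5 FPKM added (0.47). Control had 4 higher, 3 lower and a median of 0.56. The ferritin heavy chain genes zgc:198419 and fth1b stood at 47.1 FPKM at 48 hpf and 8.66 FPKM at 24 hpf and at 22.6 FPKM at 48 hpf and 7.09 FPKM at 24 hpf in foxo3b MO. The hepcidin gene hamp2, for the liver hormone that limits iron export, stood at 32.5 FPKM at 48 hpf and 0.209 FPKM at 24 hpf, though it shares its locus with another gene and had 3.91 FPKM in control at 48 hpf. The glutaredoxin gene glrx5, needed for iron-sulfur clusters and for heme in zebrafish, was lower, at 62.7 FPKM at 48 hpf and 166 FPKM at 24 hpf (log2 fold -1.39). Transferrin, tfa, the most abundant of the list, stood at 1363 FPKM at 48 hpf and 1084 FPKM at 24 hpf.

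**Figure D3:**
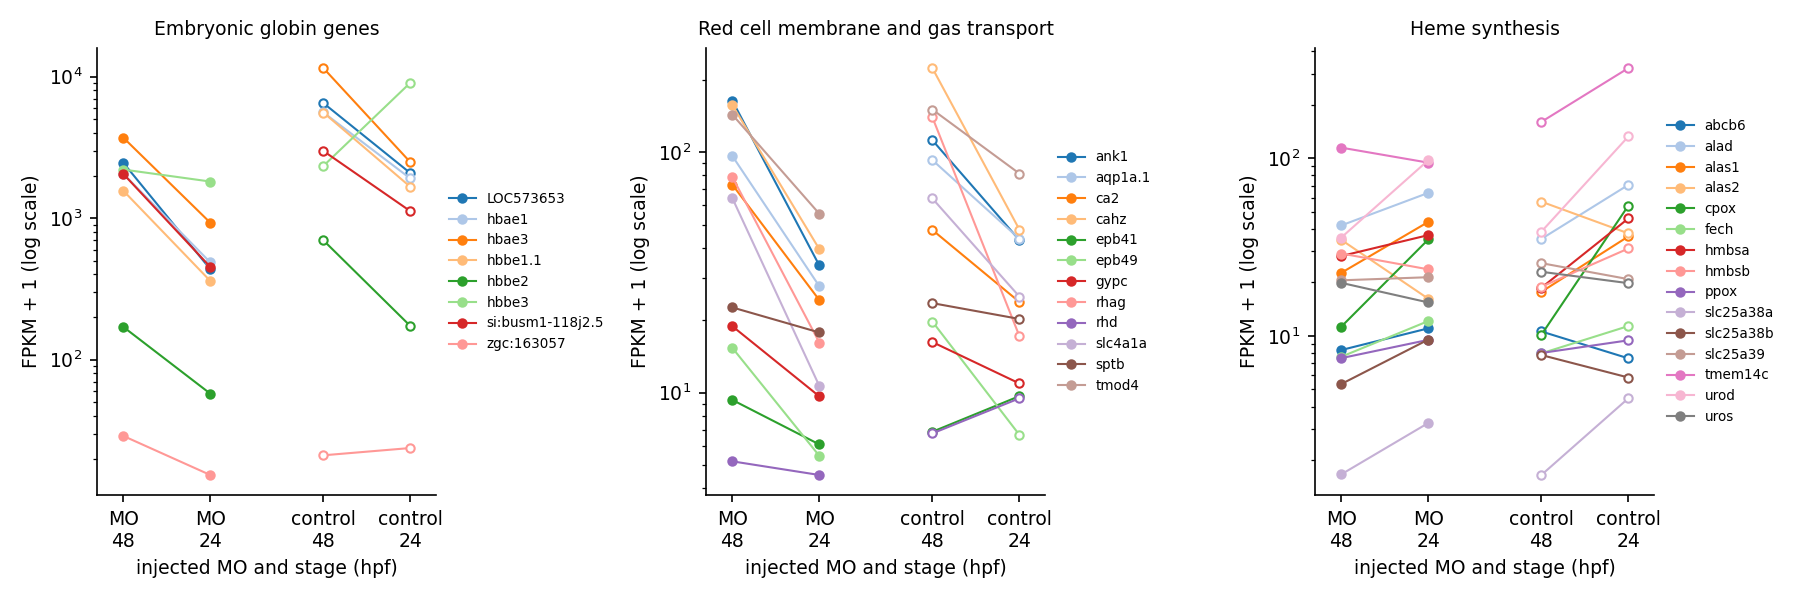
FPKM + 1 (log scale) of embryonic globin genes, of genes of the red cell membrane and gas transport, and of heme synthesis genes, 1 line per gene, in foxo3b MO at 48 and 24 hpf (filled points) and in control at 48 and 24 hpf (open points). In foxo3b MO all 8 globin lines stand higher at 48 hpf and 8 of the 12 membrane lines do so by at least 2-fold, while among the heme lines alas2 stands higher and cpox and urod lower by as much.

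Genes known as FOXO targets did not move as a group in foxo3b MO. Of 44, 9 were at least 2-fold higher (over all genes 15.7%) and 6 lower (over all genes 11.5%), with a median log2 fold of 0.14. Control had 16 higher (over all genes 21.0%) and 2 lower (over all genes 8.75%), with a median of 0.74. On the deposited scale, the log2 fold in foxo3b MO lay below that in control for 30 of the 44, and for 64.5% of all genes. The mitochondrial superoxide dismutase gene sod2 stood at 46.6 FPKM at 48 hpf and 3.08 FPKM at 24 hpf in foxo3b MO, a log2 fold of 3.54, and at 77.9 FPKM at 48 hpf and 5.25 FPKM at 24 hpf in control, a log2 fold of 3.66. The catalase gene cat stood at 19.3 FPKM at 48 hpf and 3.56 FPKM at 24 hpf in foxo3b MO, a log2 fold of 2.15, and at 33.9 FPKM at 48 hpf and 4.26 FPKM at 24 hpf in control, a log2 fold of 2.73. Both antioxidant genes were thus higher at 48 hpf whichever MO was injected.

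The insulin-like growth factor binding gene igfbp1a stood at 42.6 FPKM at 48 hpf and 5.55 FPKM at 24 hpf in foxo3b MO, a log2 fold of 2.73, and the cyclin G gene ccng2 at 109.9 FPKM at 48 hpf and 15.9 FPKM at 24 hpf (log2 fold 2.71). On the other side stood bbc3, a cell death gene, with a log2 fold of -1.94. Of 25 antioxidant genes, 7 were at least 2-fold higher (over all genes 15.7%) and 1 lower (over all genes 11.5%), with a median of 0.18. Among them the glutathione transferase gene gstp1 stood at 797 FPKM at 48 hpf and 194 FPKM at 24 hpf, and the thioredoxin gene txn at 946 FPKM at 48 hpf and 377 FPKM at 24 hpf in foxo3b MO and 467 FPKM at 48 hpf and 574 FPKM at 24 hpf in control.

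Damage response genes, which act in arrest, repair and cell death, had a median below that of all genes in foxo3b MO. Among 27 genes, 13 were lower by 2-fold or more and 1 was higher, and the median log2 fold was -0.95. In control, 4 were lower and 2 higher, with a median of -0.06. The member higher in foxo3b MO was ccng2, given above among the FOXO targets, with log2 folds of 2.71 in foxo3b MO and 2.01 in control. Whether the pairs differ cannot be tested with 1 library a group.

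The initiator caspase gene casp8 stood at 9.87 FPKM at 48 hpf and 56.4 FPKM at 24 hpf in foxo3b MO, a log2 fold of -2.4, and at 5.63 FPKM at 48 hpf and 4.56 FPKM at 24 hpf in control. The gene phlda3, a repressor of Akt signalling in mammals, stood at 13.01 FPKM at 48 hpf and 63.5 FPKM at 24 hpf in foxo3b MO, a log2 fold of -2.2, and at 10.8 FPKM at 48 hpf and 6.94 FPKM at 24 hpf in control. The 24 hpf foxo3b MO library was in both cases the high one of the 4. For bbc3, the gene for the pro-death protein Puma, the levels were 1.29 FPKM at 48 hpf and 7.77 FPKM at 24 hpf in foxo3b MO and 1.44 FPKM at 48 hpf and 1.199 FPKM at 24 hpf in control.

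At 24 hpf in foxo3b MO, pmaip1, for the pro-death protein Noxa, had 285 FPKM, and it was listed at 0 in the other 3 libraries. Its locus is short, at 236 bases, and the number of fragments behind its FPKM is not known. The ubiquitin ligase gene mdm2 stood at 52.2 FPKM at 48 hpf and 159 FPKM at 24 hpf in foxo3b MO and at 32.5 FPKM at 48 hpf and 28.6 FPKM at 24 hpf in control. The cyclin G gene ccng1 stood at 1433 FPKM at 48 hpf and 2311 FPKM at 24 hpf in foxo3b MO, against 666 FPKM at 48 hpf and 348 FPKM at 24 hpf in control, so its level at 48 hpf in foxo3b MO was still above both control levels. Both mdm2 and ccng1 were chosen after their values were seen.

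Heat shock and chaperone genes also had a median below that of all genes, with 10 of 26 at least 2-fold lower, none higher and a median of -0.69, against a control median of -0.24. The small heat shock gene hspb1 stood at 157 FPKM at 48 hpf and 537 FPKM at 24 hpf in foxo3b MO, a log2 fold of -1.77. The muscle chaperone gene hsp90aa1.1 stood at 234 FPKM at 48 hpf and 742 FPKM at 24 hpf (log2 fold -1.66), and the collagen chaperone gene hsp47 at 353 FPKM at 48 hpf and 1165 FPKM at 24 hpf (log2 fold -1.72). The most abundant chaperone gene, hspa8, stood at 2395 FPKM at 48 hpf and 2921 FPKM at 24 hpf. Of 23 immediate early genes 2 were at least 2-fold higher (over all genes 15.7%) and 6 lower (over all genes 11.5%).

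Myeloid marker genes had a median above that of all genes in foxo3b MO, by a margin that depended on the setting. Of 34, 17 were at least 2-fold higher and 3 lower, with a median of 1.01, while in control 8 were higher and 6 lower, with a median of -0.03. Without genes at shared loci the foxo3b MO median was 0.46 over 31 genes, and with no floor it was 0.46 over 39 genes; the list was called under neither setting. The lysozyme gene lyz stood at 214 FPKM at 48 hpf and 5.75 FPKM at 24 hpf in foxo3b MO, a log2 fold of 4.99, and at 382 FPKM at 48 hpf and 33.3 FPKM at 24 hpf in control. The nephrosin gene npsn, for a neutrophil protease, stood at 87.8 FPKM at 48 hpf and 1.703 FPKM at 24 hpf in foxo3b MO, though its locus overlaps another gene.

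For some myeloid genes, among them mmp9, il1b and mmp13a, the log2 folds of the pairs differed in sign. These 3 were not the only ones. Of the 34 myeloid genes, 25 had log2 folds above 0 in foxo3b MO and 16 in control, where the medians of all genes were -0.03 and 0.18. The gelatinase gene mmp9, of neutrophils and wounded skin, stood at 44.3 FPKM at 48 hpf and 8.65 FPKM at 24 hpf in foxo3b MO, a log2 fold of 2.23, and at 5.86 FPKM at 48 hpf and 14.4 FPKM at 24 hpf in control, a log2 fold of -1.17. The interleukin gene il1b stood at 10.9 FPKM at 48 hpf and 3.34 FPKM at 24 hpf in foxo3b MO and at 1.43 FPKM at 48 hpf and 2.54 FPKM at 24 hpf in control, and the collagenase gene mmp13a at 27.3 FPKM at 48 hpf and 9.24 FPKM at 24 hpf in foxo3b MO and at 5.37 FPKM at 48 hpf and 6.33 FPKM at 24 hpf in control. Both il1b and mmp13a were chosen after their values were seen. The lysosomal protease genes ctsc and ctssb.1 were lower, with log2 folds of -2.64 and -1.57 in foxo3b MO.

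Summed over its 39 genes the myeloid list came to 1064 FPKM at 48 hpf and 772 FPKM at 24 hpf in foxo3b MO, and to 894 and 643 FPKM in control. In foxo3b MO, npsnl was listed at 0 at both stages and fcer1g at 24 hpf. The part of myeloid cells in the sorted samples was not tested. Complement and clotting genes, made mainly by the liver, were spread upward in foxo3b MO, with 20 of 35 at least 2-fold higher, 2 lower and a median of 1.06. Control had 14 higher, 2 lower and a median of 0.84. In foxo3b MO the fibrinogen gene fgg stood at 373 FPKM at 48 hpf and 62.6 FPKM at 24 hpf. The vitronectin gene vtna stood at 56.4 FPKM at 48 hpf and 5.696 FPKM at 24 hpf.

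**Figure D4:**
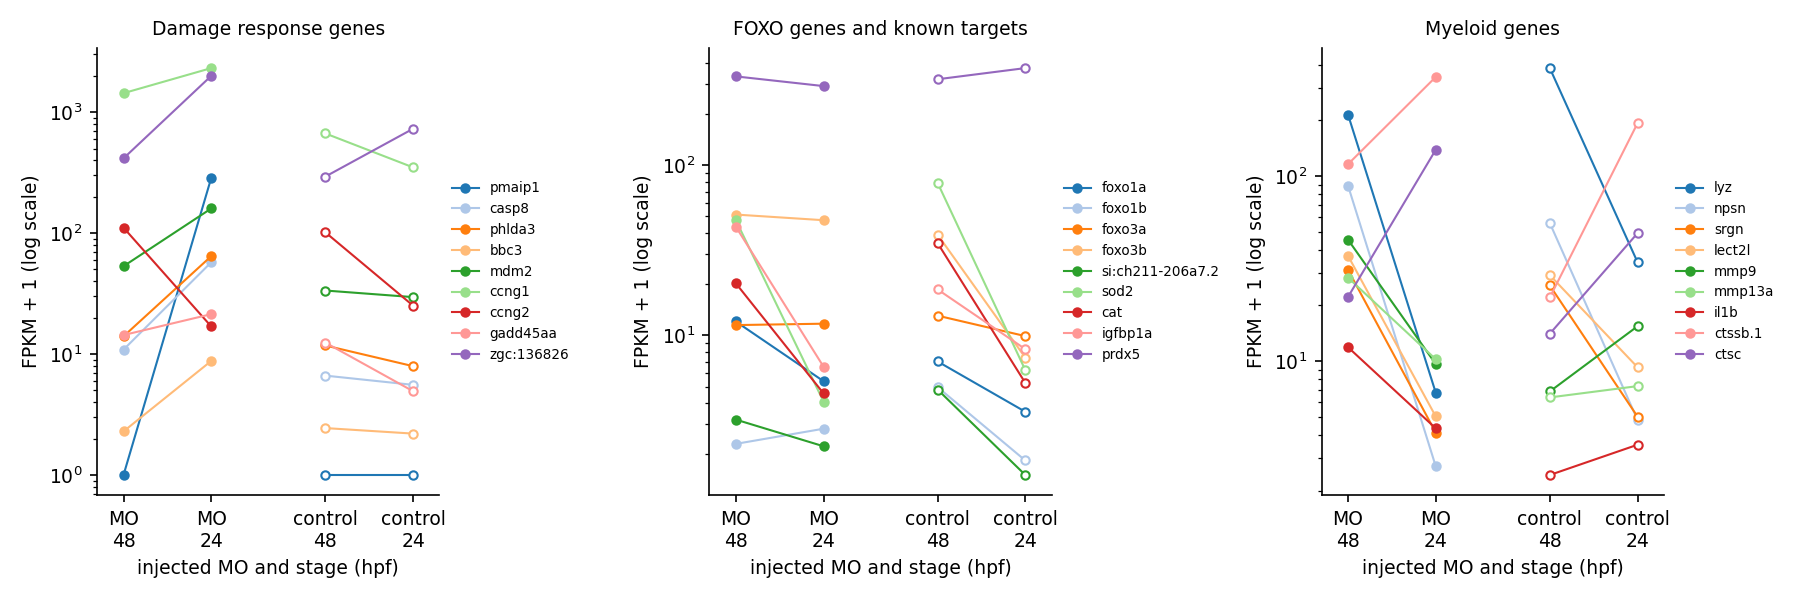
FPKM + 1 (log scale) of 9 damage response genes, of the FOXO genes with 4 known targets, and of 9 myeloid genes, 1 line per gene, in foxo3b MO at 48 and 24 hpf (filled points) and in control at 48 and 24 hpf (open points). The lines of casp8, phlda3, bbc3, mdm2 and pmaip1 peak in foxo3b MO at 24 hpf, and the foxo3b line is level in foxo3b MO.

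The lists of ribosome biogenesis, DNA replication, mitosis and cell cycle, splicing factors and cytosolic ribosomal proteins had medians below that of all genes in foxo3b MO. Most members of each lay within 2-fold. Ribosome biogenesis genes, whose products build the ribosome in the nucleolus, had 26 of 57 at least 2-fold lower, none higher and a median of -0.91. Control had 24 lower, none higher and a median of -0.725. In foxo3b MO the gene tbl3, of the small subunit processome, stood at 9.32 FPKM at 48 hpf and 50.95 FPKM at 24 hpf (log2 fold -2.33). The RNA polymerase I subunit gene polr1b stood at 5.08 FPKM at 48 hpf and 23.9 FPKM at 24 hpf, and the nucleophosmin gene npm1a at 368 FPKM at 48 hpf and 749.7 FPKM at 24 hpf.

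DNA replication genes had 17 of 53 at least 2-fold lower, 1 higher and a median of -0.76. The replicative helicase gene mcm4 stood at 28.6 FPKM at 48 hpf and 105 FPKM at 24 hpf (log2 fold -1.84), and the replication licensing inhibitor gene gmnn at 16.6 FPKM at 48 hpf and 70.7 FPKM at 24 hpf (log2 fold -2.02). The sliding clamp gene pcna, the most abundant of the list, was within 2-fold in foxo3b MO, at 812 FPKM at 48 hpf and 894 FPKM at 24 hpf, and had 521 FPKM at 48 hpf and 875 FPKM at 24 hpf in control. Control had 29 of the 53 at least 2-fold lower, none higher and a median of -1.07.

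Mitosis and cell cycle genes gave a like picture, with 17 of 57 at least 2-fold lower, 1 higher and a median of -0.72. Control had 24 lower, none higher and a median of -0.94. In foxo3b MO the topoisomerase gene top2a stood at 31.4 FPKM at 48 hpf and 102 FPKM at 24 hpf (log2 fold -1.67). The spindle midzone gene prc1a stood at 14.96 FPKM at 48 hpf and 53.98 FPKM at 24 hpf (log2 fold -1.78). The cyclin D gene ccnd1 was the member past 2-fold upward, at 349.8 FPKM at 48 hpf and 141 FPKM at 24 hpf. Splicing factor genes had 23 of 66 at least 2-fold lower, 1 higher and a median of -0.73, with hnrnpa1 at 169 FPKM at 48 hpf and 858 FPKM at 24 hpf (log2 fold -2.34). For splicing factors control had 25 lower, 1 higher and a median of -0.62.

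Cytosolic ribosomal protein genes took 31.2% of total FPKM at 48 hpf and 44.2% at 24 hpf in foxo3b MO, and 43.9% and 55.1% in control. In foxo3b MO 18 of 83 were at least 2-fold lower and 3 higher, with a median of -0.63. Control had 30 lower, 2 higher and a median of -0.70. The gene rps20 stood at 1751 FPKM at 48 hpf and 6912 FPKM at 24 hpf in foxo3b MO (log2 fold -1.98). There rpl22l1 stood at 211 FPKM at 48 hpf and 903 FPKM at 24 hpf (log2 fold -2.09). The most abundant, zgc:77235, stood at 47268 FPKM at 48 hpf and 80646 FPKM at 24 hpf in foxo3b MO and at 307548 FPKM at 48 hpf and 93455 FPKM at 24 hpf in control. Mitochondrial ribosomal protein genes had 2 of 66 higher, 3 lower and a median of -0.04.

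Glycolysis genes were higher, with 18 of 31 at least 2-fold higher, 4 lower and a median of 1.19. Control had 17 higher, 3 lower and a median of 1.12. In foxo3b MO the pyruvate kinase gene pkm2b stood at 355 FPKM at 48 hpf and 6.62 FPKM at 24 hpf (log2 fold 5.55). The muscle phosphofructokinase genes pfkma and pfkmb had log2 folds of 3.96 and 3.84. The glucose transporter gene slc2a1a was lower, at 8.53 FPKM at 48 hpf and 57.7 FPKM at 24 hpf (log2 fold -2.62). These enzymes are also abundant in muscle, and muscle markers moved in the same direction; their part in the glycolysis values was not tested.

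Oxidative phosphorylation genes as a list were level, with 8 of 90 higher, 5 lower and a median of 0.11. The highest member was ndufa4, for a subunit of the respiratory chain, at 158 FPKM at 48 hpf and 8.98 FPKM at 24 hpf (log2 fold 3.996). Below it came cox7a1 and cox6a2, forms made in muscle and heart in mammals, with cox7a1 at 21.7 FPKM at 48 hpf and 1.27 FPKM at 24 hpf and cox6a2 at 13.7 FPKM at 48 hpf and 1.01 FPKM at 24 hpf. The mitochondrial ADP/ATP carrier gene slc25a4, the form of muscle and heart in mammals, had the highest log2 fold of the 5465 genes open to that ranking, 8.23, with 708 FPKM at 48 hpf and 1.37 FPKM at 24 hpf in foxo3b MO and 821 FPKM at 48 hpf and 6.97 FPKM at 24 hpf in control.

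Lens, muscle and fin fold genes accounted for 11 of the 15 highest log2 folds among those 5465 genes, which average at least 10 FPKM in foxo3b MO and have a locus of their own and a proper symbol. Genes outside that ranking also stood high, such as crygm2d10 (log2 fold 9.16), at a shared locus, and zgc:136930 (log2 fold 7.17). Of 64 lens genes in the files, mainly crystallins, the refractive proteins of the eye lens, 19 did not reach the mean of 1 FPKM. The other 45 were at least 2-fold higher in foxo3b MO, with a median of 5.26, and 44 of them in control, with a median of 5.13. Since a gene near 0 at 24 hpf reached that mean only through 48 hpf, these counts give no measure of the list as a whole. The crystallin gene cryba2a stood at 536 FPKM at 48 hpf and 8.82 FPKM at 24 hpf in foxo3b MO, a log2 fold of 5.77, and lim2.4, for a lens membrane protein, at 314 FPKM at 48 hpf and 2.71 FPKM at 24 hpf (log2 fold 6.41). Many crystallin genes of the crygm2d group share a locus, so the split of reads among them is uncertain, and without shared loci the median was 3.39 over 25 genes. The list summed to 8654 FPKM at 48 hpf and 195 FPKM at 24 hpf in foxo3b MO, with 13 and 23 of its 64 genes listed at 0. Without genes listed at 0 at either stage the median was 5.15 over 33 genes.

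Muscle markers had 30 of 65 at least 2-fold higher, 9 lower and a median of 0.91, and summed to 69265 FPKM at 48 hpf and 22104 FPKM at 24 hpf in foxo3b MO. Control had 31 higher, 8 lower and a median of 0.84. In foxo3b MO, zgc:56085 was listed at 0 at 48 hpf and nppa at 24 hpf. The calcium buffer genes of fast muscle, pvalb1 and pvalb2, stood at 4309.7 FPKM at 48 hpf and 58.9 FPKM at 24 hpf and at 9592 FPKM at 48 hpf and 281 FPKM at 24 hpf, with log2 folds of 6.17 and 5.09. The fast troponin I gene tnni2b.2 stood at 94.3 FPKM at 48 hpf and 0.3099 FPKM at 24 hpf (log2 fold 6.19).

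Of the 9 lower muscle markers, myog was the lowest. The differentiation factor gene myog stood at 7.17 FPKM at 48 hpf and 84.6 FPKM at 24 hpf (log2 fold -3.39). The myoblast fusion gene tmem8c, known as myomaker and not in the list, stood at 1.92 FPKM at 48 hpf and 41.7 FPKM at 24 hpf (log2 fold -3.87). Neural markers had 33 of 55 at least 2-fold higher, 4 lower and a median of 1.38. Control had 29 higher, 6 lower and a median of 1.245. In foxo3b MO the axon receptor gene islr2 stood at 92.4 FPKM at 48 hpf and 7.56 FPKM at 24 hpf. The neurofilament gene nefl stood at 14.7 FPKM at 48 hpf and 0.608 FPKM at 24 hpf. The hindbrain gene egr2b was listed at 0 at 48 hpf and at 4.599 FPKM at 24 hpf in foxo3b MO.

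Pigment cell genes had 13 of 30 at least 2-fold higher, 2 lower and a median of 0.71, and lost the call with 5 FPKM added (0.45). Control had 14 higher, 2 lower and a median of 0.87. In foxo3b MO the melanin genes tyrp1b and dct stood at 252 FPKM at 48 hpf and 8.902 FPKM at 24 hpf and at 125 FPKM at 48 hpf and 16.5 FPKM at 24 hpf. The level of gch2, for pteridine pigment, was 539.8 FPKM at 48 hpf and 52.6 FPKM at 24 hpf. Retina genes had 8 of 25 higher and 4 lower, with a median of 0.30 in foxo3b MO, against 16 higher, 1 lower and a median of 1.59 in control. Over all genes 15.7% were higher and 11.5% lower in foxo3b MO, and 21.0% and 8.75% in control. The retinal ganglion cell factor gene atoh7 stood at 20.5 FPKM at 48 hpf and 0.0996 FPKM at 24 hpf in foxo3b MO and 24.9 FPKM at 48 hpf and 0.111 FPKM at 24 hpf in control, and the bipolar cell gene vsx1 at 17.3 FPKM at 48 hpf and 1.897 FPKM at 24 hpf in foxo3b MO and 84.8 FPKM at 48 hpf and 1.91 FPKM at 24 hpf in control. In foxo3b MO the opsin genes opn1sw1, opn1mw2 and opn1lw1 were listed at 0 at both stages.

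Genes for 3 actinodins, structural proteins of the larval fin fold, were among the highest. The level of and2 was 156 FPKM at 48 hpf and 0.767 FPKM at 24 hpf, that of and3 130.3 FPKM at 48 hpf and 1.19 FPKM at 24 hpf and that of and1 188 FPKM at 48 hpf and 4.22 FPKM at 24 hpf, with log2 folds of 6.47, 5.9 and 5.18. The gene and4 stood at 459 FPKM at 48 hpf and 57.9 FPKM at 24 hpf in foxo3b MO, a log2 fold of 2.97, and at 1980.5 FPKM at 48 hpf and 35.3 FPKM at 24 hpf in control, a log2 fold of 5.77. Its listed locus spans 425 bases. Epidermal and keratin genes spread widely, with 11 of 42 higher (over all genes 15.7%), 8 lower (over all genes 11.5%) and a median of -0.28. The highest was zgc:136930, at 167 FPKM at 48 hpf and 0.1702 FPKM at 24 hpf, and next came zgc:113413, currently aep1, at a shared locus, with 821 FPKM at 48 hpf and 31.04 FPKM at 24 hpf. The abundant keratin gene krt4 stood at 10879 FPKM at 48 hpf and 9466 FPKM at 24 hpf, while zgc:110712, currently krt99, stood at 5.04 FPKM at 48 hpf and 161 FPKM at 24 hpf (log2 fold -4.74).

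Lists of transient embryonic structures had mixed members. The hatching gland list had 3 of 9 at least 2-fold lower (over all genes 11.5%) and 2 higher (over all genes 15.7%), with a median of -0.58. It lost the call with a floor of 5 FPKM. Control had 5 lower, 2 higher and a median of -1.3. In foxo3b MO the higher genes were agr2, at 79.4 FPKM at 48 hpf and 19.6 FPKM at 24 hpf, and tfpia, at 40.3 FPKM at 48 hpf and 10.7 FPKM at 24 hpf. The hatching enzyme gene he2 stood at 5.3 FPKM at 48 hpf and 215 FPKM at 24 hpf (log2 fold -5.1), and the gland's cathepsin gene ctsl1b at 143 FPKM at 48 hpf and 1486 FPKM at 24 hpf (log2 fold -3.37). The abundant hatching enzyme genes he1b and he1a were within 2-fold, at 2989.7 FPKM at 48 hpf and 4627 FPKM at 24 hpf and at 1655 FPKM at 48 hpf and 2267 FPKM at 24 hpf, where control had 1334 FPKM at 48 hpf and 4864 FPKM at 24 hpf of he1b and 610.1 FPKM at 48 hpf and 1504 FPKM at 24 hpf of he1a.

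Genes of the presomitic tissue, from which the trunk segments arise, had 13 of 31 at least 2-fold lower, 1 higher and a median of -0.84. They lost the call with 5 FPKM added (-0.52). Control had 12 lower, none higher and a median of -0.64. In foxo3b MO the tailbud gene cdx4 stood at 1.66 FPKM at 48 hpf and 25.1 FPKM at 24 hpf (log2 fold -3.29). The presomitic regulator gene msgn1 stood at 2.502 FPKM at 48 hpf and 28.8 FPKM at 24 hpf (log2 fold -3.09). The segmentation genes ripply2, mespaa and mespba were listed at 0 at 48 hpf in foxo3b MO. Early embryo genes had 7 of 18 lower, 2 higher and a median of -0.75. They were not called with 5 FPKM added (-0.51), with no floor (-0.48) or with a floor of 5 FPKM (-0.46). Control had 5 lower, 3 higher and a median of -0.47. Among the lower ones in foxo3b MO was the pluripotency-linked RNA-binding gene lin28a, at 11.8 FPKM at 48 hpf and 38.1 FPKM at 24 hpf.

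Among the other lowest genes were several enzymes. The urate oxidase gene uox stood at 2.99 FPKM at 48 hpf and 76.1 FPKM at 24 hpf in foxo3b MO, a log2 fold of -4.27, and cyp11a1, for the first step of steroid synthesis, at 1.1 FPKM at 48 hpf and 36.7 FPKM at 24 hpf (log2 fold -4.17). The related P450 gene cyp4t8 had a log2 fold of -4.1 and the cathepsin gene ctsll one of -3.51. The collagen gene col8a1a, of the notochord sheath, stood at 8.85 FPKM at 48 hpf and 126 FPKM at 24 hpf (log2 fold -3.69).

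The lowest log2 fold in the same ranking was that of vgll4, a cofactor of TEAD transcription factors. It stood at 32.9 FPKM at 48 hpf and 2565 FPKM at 24 hpf in foxo3b MO, a log2 fold of -6.24, and at 17.2 FPKM at 48 hpf and 18.1 FPKM at 24 hpf in control, a log2 fold of -0.07. A single library, foxo3b MO at 24 hpf, thus stood apart from the other 3.

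Some RNAs without long coding parts also had large differences. The small nuclear RNA gene rn7sk, which holds an elongation factor inactive, stood at 13681 FPKM at 48 hpf and 125 FPKM at 24 hpf in foxo3b MO, a log2 fold of 6.77, and at 667 FPKM at 48 hpf and 39.1 FPKM at 24 hpf in control. The RNase P RNA gene rpph1 stood at 1675 FPKM at 48 hpf and 13.7 FPKM at 24 hpf in foxo3b MO, a log2 fold of 6.83, and at 127 FPKM at 48 hpf and 20.97 FPKM at 24 hpf in control. Their loci span 323 and 307 bases, and such RNAs lack a poly(A) tail; the part of library capture in these levels was not tested. The replication-dependent histone gene hist1h4l, whose mRNA also lacks that tail, stood at 52.3 FPKM at 48 hpf and 5.94 FPKM at 24 hpf in foxo3b MO and at 15.16 FPKM at 48 hpf and 26.03 FPKM at 24 hpf in control.

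Genes with at least 10 FPKM in a single foxo3b MO library and listed at 0 in the other were few. Of the genes listed at 0 at 24 hpf alone, 14 had at least 10 FPKM at 48 hpf, and of those at 0 at 48 hpf alone, 6 had at least 10 FPKM at 24 hpf. The atrial peptide gene nppa had 59.6 FPKM, the fatty acid binding gene fabp11b 35.5 FPKM and the defensin gene defbl1 24.2 FPKM at 48 hpf. The microRNA gene mir363 had 687 FPKM, the U11 small nuclear RNA gene rnu11 305 FPKM and arf4 11.5 FPKM at 24 hpf. Their loci are short, at 128, 138 and 348 bases, and the number of fragments behind each FPKM is not known. In control, mir363 had 100 FPKM and arf4 5.16 FPKM at 24 hpf, and both were listed at 0 at 48 hpf. There rnu11 was listed at 0 at both stages.

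The control pair was set beside the foxo3b MO pair to show where the log2 folds lay apart. In control 2509 genes were at least 2-fold higher at 48 hpf, which is 21.0%, and 1047 lower, which is 8.75%, with a median of 0.18. The pairs share no library. Genes higher in both numbered 1464, which is 12.2% of all, 77.8% of those higher in foxo3b MO and 58.3% of those higher in control. Genes lower in both numbered 673, which is 5.62% of all, 48.9% of those lower in foxo3b MO and 64.3% of those lower in control. Across the 11971 genes the log2 folds had a Pearson r of 0.80 and a Spearman rho of 0.79, as a description, since genes are not replicates. The distance between the pairs depends on the scale. With median-of-ratios scaling over the 4 libraries, the median of all genes was -0.023 in foxo3b MO and -0.041 in control. Genes higher in both then numbered 1312 and genes lower in both 847.

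Opposite directions past 2-fold were rare, with 9 genes higher in foxo3b MO and lower in control, and 15 the other way. The gene mkxb, whose mouse counterpart acts in tendon, stood at 1.62 FPKM at 48 hpf and 22.99 FPKM at 24 hpf in foxo3b MO and at 296 FPKM at 48 hpf and 5.16 FPKM at 24 hpf in control. Its listed locus is on the scaffold Zv9_NA916, outside the numbered chromosomes, as is that of lsamp, on Zv9_NA963. The lowest differences of log2 fold also took in lsamp, for a neuronal adhesion protein, with 218 FPKM at 48 hpf and 204 FPKM at 24 hpf in foxo3b MO and 541 FPKM at 48 hpf and 30.5 FPKM at 24 hpf in control, and adcyap1r1a, for a neuropeptide receptor, with 7 FPKM at 48 hpf and 2.37 FPKM at 24 hpf in foxo3b MO and 103 FPKM at 48 hpf and 2.89 FPKM at 24 hpf in control. The red cell and liver pyruvate kinase gene pklr was among the highest differences, at 30.7 FPKM at 48 hpf and 16.6 FPKM at 24 hpf in foxo3b MO, a log2 fold of 0.85, and at 16.4 FPKM at 48 hpf and 78.2 FPKM at 24 hpf in control, a log2 fold of -2.19. With 1 library a group, none of these differences between the pairs can be tested.

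**Figure D5:**
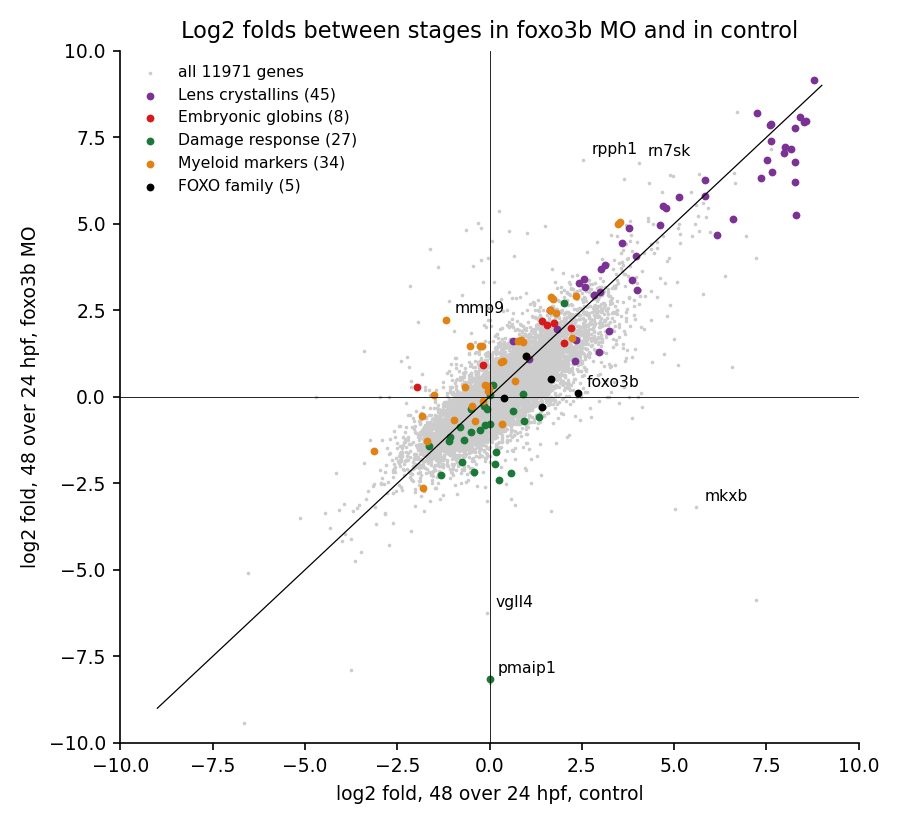
Log2 fold between 48 and 24 hpf in foxo3b MO (vertical) against that in control (horizontal) for 11971 genes, with 5 gene lists in colour and 7 genes named; the diagonal marks equal log2 folds. Most genes lie along the diagonal (Pearson r 0.80 across genes), 64.5% of all genes and 22 of the 27 damage response genes lie below it, and 35.5% of all genes and 29 of the 34 myeloid genes above it. Levels are unscaled, and the distance between the pairs depends on the scale.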

How the data were processed

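RNA of sorted Gata1+ cells was extracted with TRIzol and sequenced after a standard Illumina preparation, per the labels' protocols. TopHat and Cufflinks were used for alignment and quantification on Zv9, per the submitters' processing notes, with versions, options, annotation and strand not given in the sources used here. The authors deposited FPKM for 14417 genes per library, with loci, and these were used unscaled. Current names were found for 14134 of them in a RefSeq gene table, used for names only; genes are called by the files' symbols, and 9 symbols were dates.

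Computed here were log2((FPKM + 1)/(FPKM + 1)) per gene, counts past 2-fold and list medians, with no test. In addition, relative depth was read from steps below 0.3 FPKM (205 genes between the foxo3b MO libraries, 42.9% within 0.03 log2 of a step). Against the control library of 24 hpf the shares on a step were lower. They were 33.7% for foxo3b MO at 48 hpf, 29.4% for foxo3b MO at 24 hpf and 28.9% for control at 48 hpf. Of the 11971 genes described, 1048 overlap another gene's locus.

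Named genes were foxo3b, gata1a, the 15 highest and 15 lowest log2 folds (mean of at least 10 FPKM in foxo3b MO, above 0 in both libraries, own locus, a proper symbol), up to 6 listed at 0 in 1 library, the 8 highest and lowest differences from control, and in each list the most abundant, highest, lowest and 4 largest; families of up to 15 could be given whole. The rule took 349 genes, of which the text gives those that describe a list or comparison; 1 other is not reported here. The members and lists were chosen with earlier results of these data known. Alternatives were other pseudocounts, floors and scalings, and leaving out genes at 0, at shared loci or with loci under 500 bases, the last chosen after seeing the data. The steps of the computation were tested on simulated data. No outcome of that is given here, so it is no check of the depth estimates. The tools were matplotlib 3.10.9, scipy 1.17.1, pandas 2.3.3, numpy 2.4.6 and Python 3.11.15.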

Additional observations from a re-analysis of the deposited data

Results flagged for a closer look

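In 4 of the genes taken by the naming rule, the foxo3b MO pair and the control pair were past 2-fold in opposite directions between 48 and 24 hpf; with 1 library a group the difference between the pairs was not tested. The gelatinase gene mmp9 had a log2 fold of 2.23 in foxo3b MO and -1.17 in control. The histone gene zgc:173652 had 4.27 in foxo3b MO and -1.62 in control, with 67 FPKM at 48 hpf and 2.53 FPKM at 24 hpf in foxo3b MO and 3.197 FPKM at 48 hpf and 11.9 FPKM at 24 hpf in control. The gene mkxb, listed on a scaffold outside the numbered chromosomes, had a log2 fold of -3.19 in foxo3b MO and 5.59 in control. The gene crcp, for a subunit of RNA polymerase III, had -1.1 in foxo3b MO and 2.16 in control, with 52.8 FPKM at 48 hpf and 115 FPKM at 24 hpf in foxo3b MO and 275 FPKM at 48 hpf and 60.7 FPKM at 24 hpf in control.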

How the results depend on the processing

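No paired analysis was possible because each group has 1 library. No called list median and no named gene past 2-fold changed sign under the alternatives. For single genes this was largely fixed in advance. The FPKM added and the genes left out cannot change the sign of a gene's log2 fold. The scalings moved the median of all genes by at most 0.22, less than the log2 fold of a gene past 2-fold. The sign of single genes is thus no check of them. The median of all genes, -0.03 as reported, was 0 with no floor and 0.03 with equal total FPKM. With a pseudocount of 5 FPKM, 1004 genes were at least 2-fold higher, 768 lower, 731 higher in both pairs and 386 lower in both, and the lens median was 3.86. The lens median was 3.40 with no floor and 6.65 with 0.1 FPKM added. Equal totals without ribosomal protein genes gave 2162 lower genes, 1532 higher and 1311 lower in both pairs, so that 41.5% of the calls were upward in place of 57.8%. Without genes at shared loci the globin median was 1.24 and the lens median 3.39. The myeloid median was 0.46 in that setting and with no floor, against 1.01 as reported, and the list was then not called. In all, 6 of the 20 called lists lost the call under at least 1 setting, and 5 other lists met it under another setting alone. These shifts are arithmetic results of the FPKM added, the scale or the genes taken in, as the deposited levels were the same throughout. With 1 library a group and unknown absolute depth, values of low genes cannot be given an error, and single libraries can decide any value.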
